A study of Homo sapiens with 12 samples.

Results

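The microRNAs (miRNAs) described here were the 10 miRNAs that act on RUNX2 in osteoblasts or share a seed with one that does: hsa-miR-133a, hsa-miR-135a, hsa-miR-135b, hsa-miR-137, hsa-miR-204, hsa-miR-205, hsa-miR-211, hsa-miR-217, hsa-miR-218 and hsa-miR-338-3p. They were listed by name, with earlier results of these data known, and are 10 of the 851 human miRNA names in the authors' table of log2 values. Of other miRNAs known to act on RUNX2, listed only as companions, miR-23a and miR-30c were detected on 12 arrays and miR-34c-5p on 5. All 10 names were found in that table and on the arrays. The question was which of them were present at all in osteosarcoma cells before and during osteogenic culture, and whether they differed by cell type or by day. None of the 10 was detected on any of the 12 arrays.

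Total RNA was profiled on 12 one-colour Agilent human miRNA arrays, 2 for each of 6 groups. Saos-2 is a human osteosarcoma cell line, and its parental replicates 1 and 2 were harvested at days 0, 7 and 14. Sa/CD99 cells are Saos-2 cells stably transfected with CD99, a cell surface glycoprotein, and selected in medium with neomycin. The clones Sa/CD99_wt22 and Sa/CD99_wt36, written here as clones 22 and 36, were harvested on the same days. Each clone is 1 transfectant line, so a difference of Sa/CD99 from Saos-2 rests on 2 clones. Day 0 cells were harvested under basal conditions, routine culture being in serum-supplemented IMDM, and the day 7 and day 14 cells after that time in osteogenic medium, IMDM with less serum, β-glycerophosphate and ascorbic acid. Nothing in the labels says that the parental replicates were separate cultures, so the spread between a pair of arrays may be technical.

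RUNX2 is the runt-domain transcription factor that commits mesenchymal progenitors to the osteoblast lineage and switches on bone matrix genes. A miRNA binds its targets mainly through its seed, bases 2 to 8 of the mature strand, and a match to the seed in a messenger RNA lowers that messenger's stability or translation. In osteoblast precursors, miR-133a and miR-135a are known to lower RUNX2 and SMAD5 respectively in the BMP pathway, and miR-204 and miR-211 to lower RUNX2 and favour fat cells over bone cells. miR-137 is best known from brain, miR-205 from epithelia, miR-217 from the exocrine pancreas and miR-211 from melanocytes.

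The mature strands are shown because the seed decides which targets members can share and the remaining bases decide which probe captures them. They were taken from RefSeq (GRCh38.p14), with the seed in capitals and the rest in lower case, 5′ to 3′.
hsa-miR-133a: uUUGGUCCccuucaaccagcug
hsa-miR-135a: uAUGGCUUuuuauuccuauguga
hsa-miR-135b: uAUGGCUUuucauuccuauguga
hsa-miR-137: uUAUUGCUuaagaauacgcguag
hsa-miR-204: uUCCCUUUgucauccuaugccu
hsa-miR-205: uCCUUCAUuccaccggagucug
hsa-miR-211: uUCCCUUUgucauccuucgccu
hsa-miR-217: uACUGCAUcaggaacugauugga
hsa-miR-218: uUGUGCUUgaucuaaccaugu
hsa-miR-338-3p: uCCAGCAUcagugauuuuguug

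The 10 miRNAs carried 8 different seeds. miR-135a and miR-135b shared AUGGCUU and differed by a single base, U11C, counted from 1 at the 5′ end of miR-135a. miR-204 and miR-211 shared UCCCUUU and differed by A17U and U18C, counted from the 5′ end of miR-204. The other 6 seeds, UUGGUCC of miR-133a, UAUUGCU of miR-137, CCUUCAU of miR-205, ACUGCAU of miR-217, UGUGCUU of miR-218 and CCAGCAU of miR-338-3p, belonged to 1 member each. The muscle miRNA miR-133b, which was not among the 10, has the seed of miR-133a and differs from it by G22A, at the last base.

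The genes of the members were spread over the genome. miR-133a is made from MIR133A1, with its mature strand at chr18:21825712-21825733 within the span of MIB1, and from MIR133A2, at chr20:62564970-62564991 within the non-coding MIR1-1HG. miR-204 lies within the span of TRPM3 at chr9:70809975-70810084 and miR-211 within that of TRPM1 at chr15:31065032-31065141, both hairpins. The hairpins of miR-218 lie within SLIT2 at chr4:20528275-20528384 and within SLIT3 at chr5:168768146-168768255. miR-338-3p lies within the span of AATK at chr17:81125883-81125949, miR-135b within LEMD1 at chr1:205448302-205448398, and miR-135a, made from MIR135A1 and MIR135A2, for MIR135A1 within GLYCTK at chr3:52294219-52294308. The hairpins of miR-137 at chr1:98046070-98046171, of miR-205 at chr1:209432133-209432242 and of miR-217 at chr2:55982967-55983076 lie within non-coding host genes of their own names. These positions are hairpin spans in GRCh38.p14 unless a mature strand is named, and the strand of the surrounding gene was not checked. Of the array's miRNAs encoded within 10000 bases of a member, miR-1, miR-216a, miR-657 and miR-1250, each was detected on 0 arrays.

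The sample names of the arrays were not settled by the deposited files. A scanner array with an identical detection pattern, 847 of 847 shared names, was found for each column of the log2 table, and for 12 of 12 columns it had been filed as a different sample. In accession order, the filed samples took the scanner files in the alphabetical order of their names. Whether a miRNA was detected anywhere on the 12 arrays does not depend on these names. Values by cell type or day do, and are given by the column titles of the table first and by the filed samples beside them. Between 133 and 229 human miRNAs were detected per array, and the summed signal of detected miRNAs ran from 8523 to 62172 scanner units. By column title, the day 0 arrays had the lowest sums, 8523 to 11302, against 25162 to 56491 at day 7 and 39845 to 62172 at day 14. As filed, the 4 arrays of lowest sum were Sa/CD99 arrays of all 3 days, 1 of day 0, 1 of day 7 and 2 of day 14. All day 0 columns matched arrays of 1 slide and all day 14 columns arrays of the other, so that slide and these days cannot be told apart; as filed, slide 1 held all Sa/CD99 arrays and slide 2 all Saos-2 arrays.

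In the log2 table, all 10 miRNAs stood at the minimum of their column in all 12 columns. Of the 851 names, 262 (30.8%) were above the minimum on at least 1 array, 100 (11.8%) on all 12 and 589 on none. Against that background of 30.8%, 0 of 10 members were detected. The detection flag of the scanner files gave the same count, with 0 of 120 pairs of a member and an array detected. This held for both miRNAs of each pair with a shared seed, miR-135a and miR-135b, and miR-204 and miR-211.

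**Figure D1:**
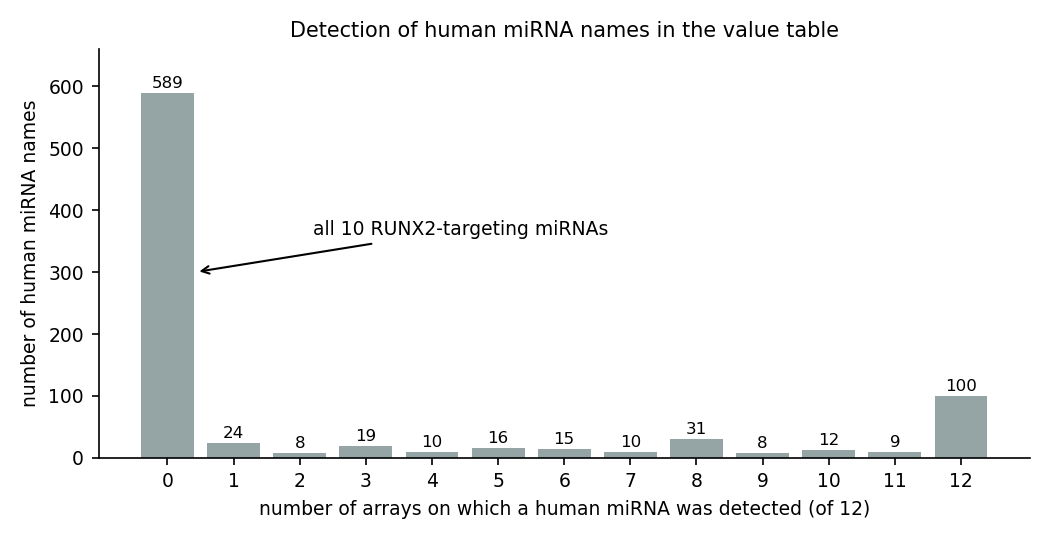
Number of human miRNA names (y axis) by the number of arrays on which each was above the column minimum of the log2 table (x axis, 0 to 12). All 10 RUNX2-targeting miRNAs fall in the bar of 589 names detected on 0 arrays, and 100 names fall in the bar of 12 arrays.

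The column minimum is a placeholder for undetected miRNAs and not a level. It was -3.0 and -3.03 in the Sa/CD99 day 0 columns, -3.23 and -3.21 at day 7 and -3.29 and -3.32 at day 14. In Saos-2 it was -3.03 and -3.13 at day 0, -3.16 and -3.32 at day 7 and -3.30 and -3.31 at day 14. The rows of all 10 members consisted of these 12 numbers, so that their apparent fall of 0.29 in Sa/CD99 and 0.22 in Saos-2 between days 0 and 14, on the log2 scale, was the movement of the placeholder.

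The scanner files show how far below the limit the members were. The scanner software called a miRNA detected on an array when any probe had a total signal over 3 times its error. This rule held for 11268 of 11268 pairs of a name and an array, viral names included. The ratio given here is the highest among the probes of a miRNA. Among the members this ratio was highest for miR-133a, at 1.78 on 1 array, which is Sa/CD99 clone 36 at day 14 by column title and was filed as Saos-2 replicate 2 at day 7. No member reached 2 on any array. The highest ratio over the 12 arrays had a median of 0.970 over the 10 members (range 0.387 to 1.78), against 1.02 over the 587 names never detected and 8.38 over the 260 detected on at least 1 array.

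miR-133a, a muscle miRNA, had a ratio from -0.50 to 1.78 on the Sa/CD99 columns (median 0.329, n = 6) and from -0.14 to 0.459 on the Saos-2 columns (median 0.265, n = 6). The ranges of the cell types overlapped, and by filed sample the higher range was that of Saos-2, up to 1.78 against 0.449. Within a clone the values also varied: clone 36 gave 0.171 at day 0, 0.966 at day 7 and 1.78 at day 14, while clone 22 gave -0.50, 0.487 and -0.15.

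miR-135a had the next highest ratio, 1.49, and went over 1 on 3 arrays. By column title these were Sa/CD99 clone 22 at day 0 (1.28), clone 36 at day 0 (1.49) and clone 36 at day 14 (1.12). The other Sa/CD99 columns gave 0.524, -0.01 and 0.832, and the Saos-2 columns ran from 0.154 to 0.824 (median 0.441, n = 6). By filed sample, Sa/CD99 ran from 0.154 to 1.49 and Saos-2 from -0.01 to 1.12, again overlapping. Its near-identical relative miR-135b had a highest ratio of 1.14 on the same array as the highest of miR-135a.

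miR-218, the intronic miRNA of the SLIT genes, went over 1 on 2 arrays with a highest ratio of 1.17, and miR-217 on 1 array with 1.12. The other 5 members stayed below 1 on all 12 arrays: the highest ratio was 0.821 for miR-211, 0.793 for miR-205, 0.710 for miR-338-3p, 0.541 for miR-137 and 0.387 for miR-204. For 2 of these 5, miR-137 and miR-205, the median over the 12 arrays was negative, at -0.04 and -0.11.

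Of the 120 pairs of a member and an array, 8 (6.67%) had a ratio over 1, compared with 13.5% of the 7044 pairs of the 587 names never detected, which include the members. By column title all 8 were Sa/CD99 arrays, 8 of 60 pairs (13.3%) against 0 of 60 in Saos-2, where names never detected gave 12.4% and 14.5%. As filed, 5 were Sa/CD99 and 3 Saos-2. The split was noticed after the values were seen, 4 of the 8 came from 1 array (Sa/CD99 clone 36 at day 0 by column title), and no test was made of it.

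**Figure D2:**
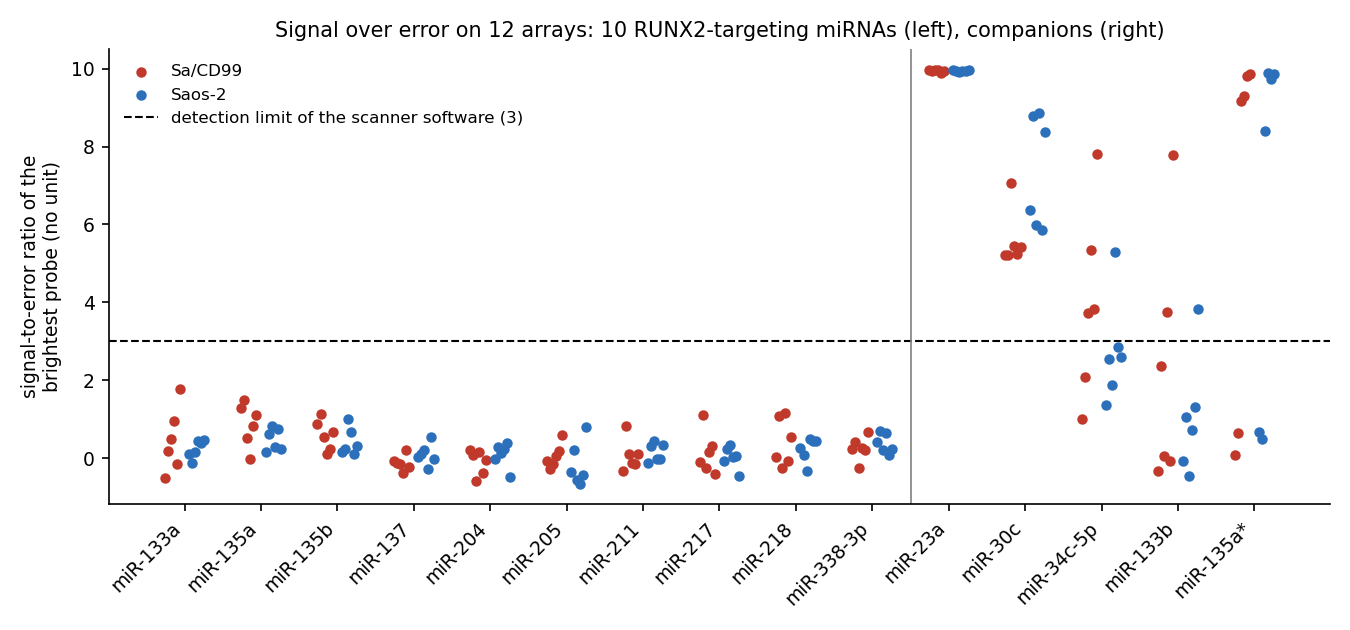
Highest signal-to-error ratio among the probes of each miRNA (y axis, no unit), which the axis labels as the brightest probe. The 10 RUNX2-targeting miRNAs are left of the vertical line and 5 companion miRNAs right of it. Each point is 1 of 12 arrays, coloured by the cell type of the table column it matches. All 120 points of the 10 miRNAs lie below the dashed detection limit of 3, the highest at 1.78, while miR-23a lies near 9.9 on every array.

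At the level of single spots, the members as a pool were dimmer than spots designed to bind nothing, with exceptions for miR-135a and miR-135b. Each member had 16 spots per array, 1920 over the 12 arrays, with 2 probe designs each and 4 for miR-217. The scanner software called 13.2% of these spots positive and significantly above background, against 35.5% of the 5208 negative-control spots. By member this share ran from 5.73% for miR-217 to 24.5% for miR-135a. The median background-subtracted signal of member spots was below that of the negative-control spots on 12 of 12 arrays, at -0.52 to 0.0840 against 0.556 to 1.78 scanner units. Taken singly, miR-135a had a spot median above that of the negative controls on 4 of 12 arrays and miR-135b on 1, and the other 8 members on 0. No member spot was saturated.

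A stricter call of the scanner software, well above background, was made for 6 of the 1920 member spots (0.312%) and for 57 negative-control spots (1.09%). Of the 6, 4 were miR-135a spots, 1 was a miR-204 spot and 1 a miR-211 spot, and 4 of the 6 were flagged as outliers among their replicate spots. The miR-204 spot had a signal of 94.3 units where the 7 other spots of the same probe had a median of -0.25. The miR-211 spot had 12.9 units where the 7 others had a median of -1.12. The 4 miR-135a spots had 7.70, 12.2, 13.4 and 19.3 units, 2 of them on 1 array, and the other spots of the probe had medians between -0.12 and 1.03.

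**Figure D3:**
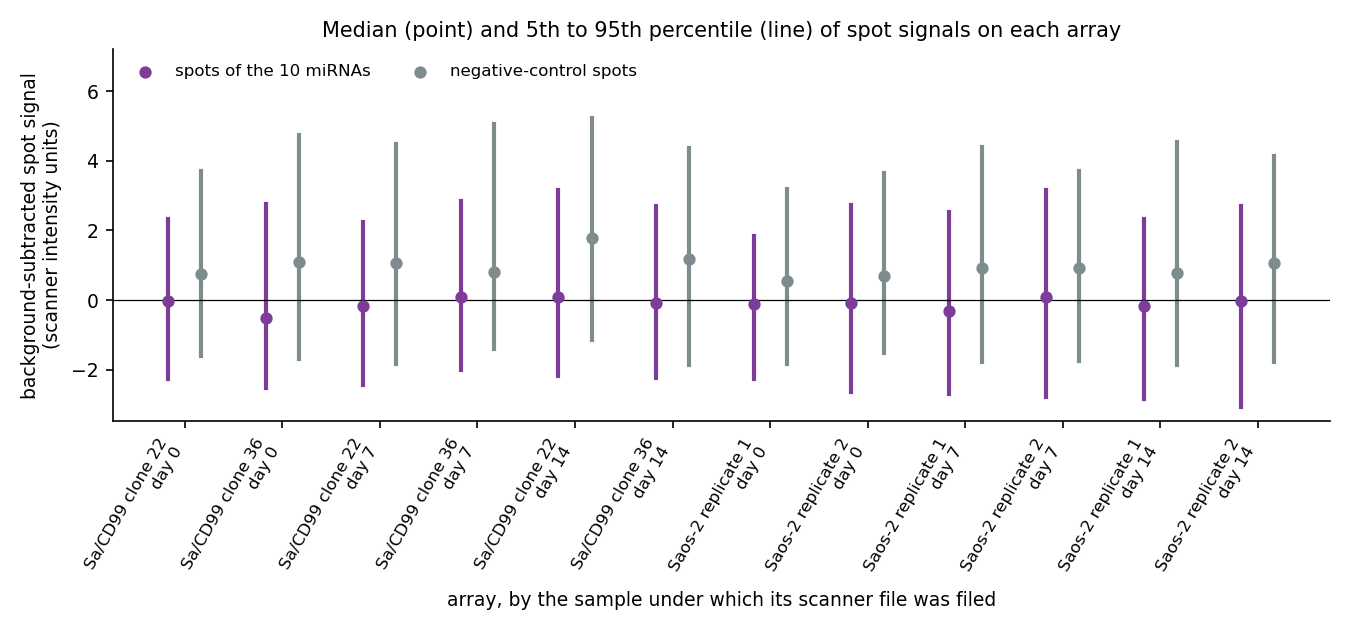
Background-subtracted spot signal in scanner units (y axis) on each of the 12 arrays, named by filed sample (x axis), for the 160 spots of the 10 RUNX2-targeting miRNAs (purple) and the 434 negative-control spots (grey); points are medians and lines run from the 5th to the 95th percentile. The purple median is below the grey one on all 12 arrays.

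The comparisons between groups were made with limma in 1 fit of the 6 groups, over the 219 miRNAs that both arrays of some group detected. No member met that filter, so no member was tested and 0 of 10 were called in any comparison. For Sa/CD99 against Saos-2, with p no higher than 0.01 before adjustment and a fold of at least 1.4, limma called 2.74% of the tested miRNAs on day 0, 3.20% on day 7 and 9.13% on day 14. At an adjusted p of at most 0.05, it called 2.74% over all days, 74.4% between days 14 and 0 in Sa/CD99, 55.7% between the same days in Saos-2, and 1.83% for the interaction of cell type and day. At an adjusted p the counts of days 0, 7 and 14 were 6, 3 and 6 in place of 6, 7 and 20, with undetected values raised to the lowest detected value 0, 6 and 17, on the scanner arrays relabelled by the matching column 3, 5 and 12, and as filed 7, 1 and 9. The background counts also moved when 1 array was left out, which left its group with 1 array, assumed to vary like the other groups, and let in miRNAs detected on that array alone, so that 220 to 241 were tested. The 6 calls at day 0 became 26 without Saos-2 replicate 1 and 11 or 12 without any other array of that day, and the 7 at day 7 became 28 without Saos-2 replicate 1 of that day. The 20 calls at day 14 became 37 without Saos-2 replicate 1, 9 without replicate 2 and 13 without Sa/CD99 clone 36. Over all days 6 became 17 without Saos-2 replicate 1 of day 0, and 20 without either replicate 2 of day 7 or replicate 1 of day 14. The 122 calls between days in Saos-2 became 81 without replicate 2 of day 0 and 65 without replicate 1 of day 14. The 4 interaction calls became 7 without Sa/CD99 clone 22 of day 0, and in Saos-2 16 and 10 without replicates 1 and 2 of day 0, 26 and 14 without those of day 7, and 15 without replicate 1 of day 14. No member was called in any of these fits. The absence of calls among the members is therefore an absence of detection and says nothing about a difference too small or too dim for the arrays.

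The RNA carried the miRNAs known from mesenchymal and bone-forming cells. Of 8 such miRNAs listed, 7 were detected on all 12 arrays (miR-145, miR-199a-3p, miR-199a-5p, miR-214, miR-140-3p, miR-21 and miR-29a), and miR-143 on none. Of 7 epithelial miRNAs, a list with the member miR-205 and the miR-200 family, 0 were detected, and of 6 blood miRNAs also 0. Of 4 neural miRNAs, with the member miR-137, miR-9 was detected on 1 array and miR-128 on 6. Of 4 skeletal muscle miRNAs, with the member miR-133a, the only one detected was miR-133b.

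Other arms and a relative of the members gave a mixed picture. miR-133b, which differs from miR-133a at the last base, was detected on 3 arrays where miR-133a was not, at log2 values of 0.39 (Sa/CD99 clone 36, day 7), 1.36 (Sa/CD99 clone 36, day 14) and -1.16 (Saos-2 replicate 2, day 14). The array with the highest miR-133b value was also the array with the highest ratio of miR-133a, 1.78. As filed, all 3 arrays were Saos-2. Shared capture of the same molecules by both probes was not tested. miR-135b*, miR-218-1* and miR-218-2*, the other arms of the miR-135b and miR-218 hairpins, were detected on 0 arrays like their partners. miR-338-5p was detected on 1 array, Saos-2 replicate 2 at day 7 by column title, at -3.08, and Sa/CD99 clone 36 at day 7 as filed.

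miR-135a*, the other arm of the miR-135a hairpin, was detected on 8 of 12 arrays, while miR-135a itself was detected on none.
miR-135a*: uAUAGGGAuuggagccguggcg
The strand is shown because among the other arms listed it is the only one seen on over 1 array, and it shares no seed with miR-135a (AUAGGGA against AUGGCUU). By column title it was at the minimum on all 4 day 0 arrays and at 4.04 and 4.10 (Sa/CD99, day 7), 5.09 and 4.70 (Sa/CD99, day 14), 3.70 and 4.75 (Saos-2, day 7) and 4.70 and 4.94 (Saos-2, day 14) on the log2 scale. The lowest detected value of each day 0 column was put in place of its minimum. The day 14 arrays were then 6.49-fold higher in Sa/CD99 and 10.9-fold higher in Saos-2. Neither fold is a lower bound, since detection depends on the error of each probe and not on signal alone. Both were called by limma, but the miRNA passed the filter only through the day 7 and day 14 groups. The day 0 values were all put in and have no spread of their own, so the calls do not test a rise of miR-135a*. The 4 arrays without it were the 4 of lowest summed signal, 8523 to 11302 units. They lay on 1 slide, where 2 of 6 arrays had it, against 6 of 6 on the other. By filed sample all 6 Saos-2 arrays detected it. By filed sample no difference between days 14 and 0 passed the test (limma, adjusted p = 0.72 in Sa/CD99, where it rests on undetected values, and 0.97 in Saos-2). The part of slide or summed signal in this pattern was not tested. GC content was 59.1% for miR-135a* and 30.4% for miR-135a.

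Of the other miRNAs known to act on RUNX2, listed as companions, miR-23a and miR-30c were detected on all 12 arrays and miR-34c-5p on 5.
miR-23a: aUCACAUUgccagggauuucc
miR-30c: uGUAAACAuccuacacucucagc
Neither shares a seed with a member, for which reason they are shown. miR-23a had log2 values of 7.83 and 7.93 at day 0 and 5.86 and 5.70 at day 14 in Sa/CD99, and of 8.09 and 7.72 at day 0 and 6.52 and 6.15 at day 14 in Saos-2, so that days 0 and 14 did not overlap. The log2 fold change was -2.10 ± 0.38 (SE; limma, adjusted p = 0.0018) in Sa/CD99 and -1.57 ± 0.38 (SE; limma, adjusted p = 0.011) in Saos-2. The median over all 219 tested miRNAs was itself -0.64 and -0.47, and with each column centred on the miRNAs detected on all arrays the values were -0.98 (limma, adjusted p = 0.057) and -0.84 (limma, adjusted p = 0.11). On the scanner arrays relabelled by the matching column they were -1.32 (limma, adjusted p = 0.018) and -0.97 (limma, adjusted p = 0.066).

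miR-30c had 3.62 and 3.62 at day 0 and -0.15 and -1.0 at day 14 in Sa/CD99, and 4.07 and 4.52 at day 0 and 0.84 and 2.56 at day 14 in Saos-2. Its log2 fold changes were -4.19 ± 0.67 (SE; limma, adjusted p = 0.0011) and -2.60 ± 0.67 (SE; limma, adjusted p = 0.015). With each column centred on the miRNAs detected on all arrays they were -3.07 (limma, adjusted p = 0.0037) and -1.87 (limma, adjusted p = 0.045). On the relabelled scanner arrays they were -0.59 (limma, adjusted p = 0.22) and -0.79 (limma, adjusted p = 0.13). The scanner signal of miR-30c on the matching arrays was 4.89 and 5.38 units at day 0 and 5.15 and 5.27 at day 14 in Sa/CD99. In Saos-2 it was 7.22 and 15.7 at day 0 and 5.39 and 14.9 at day 14. By filed sample the values of miR-23a and miR-30c did not pass the test. miR-34c-5p was detected in Sa/CD99 at day 7 (0.78 and 1.39), Sa/CD99 at day 14 (-1.0 and 1.39) and 1 Saos-2 array of day 7 (-1.10). Its log2 fold change between the cell types was called at the thresholds above at day 7, 3.21 ± 0.85 (SE; adjusted p = 0.21 from limma), and at day 14, 3.49 ± 0.85 (SE; adjusted p = 0.073 from limma). These values are set against the placeholder, on 1 Saos-2 array at day 7 and on both at day 14, and are no measured folds. The miRNA also passed the filter only through Sa/CD99 at days 7 and 14, the groups where it was high. The calls therefore do not test a difference between the cell types. With undetected values raised to the lowest detected value of their column neither day was called (1.45 and 2.25), nor was either in a fit of the 4 arrays of that day alone. On the relabelled scanner arrays the values were 2.76 at day 7, which was not called (limma, adjusted p = 0.45), and 6.15 at day 14 (limma, adjusted p = 0.044), where undetected miRNAs again stand at a placeholder. As filed, it was detected on 1 Sa/CD99 array and 4 Saos-2 arrays.

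**Figure D4:**
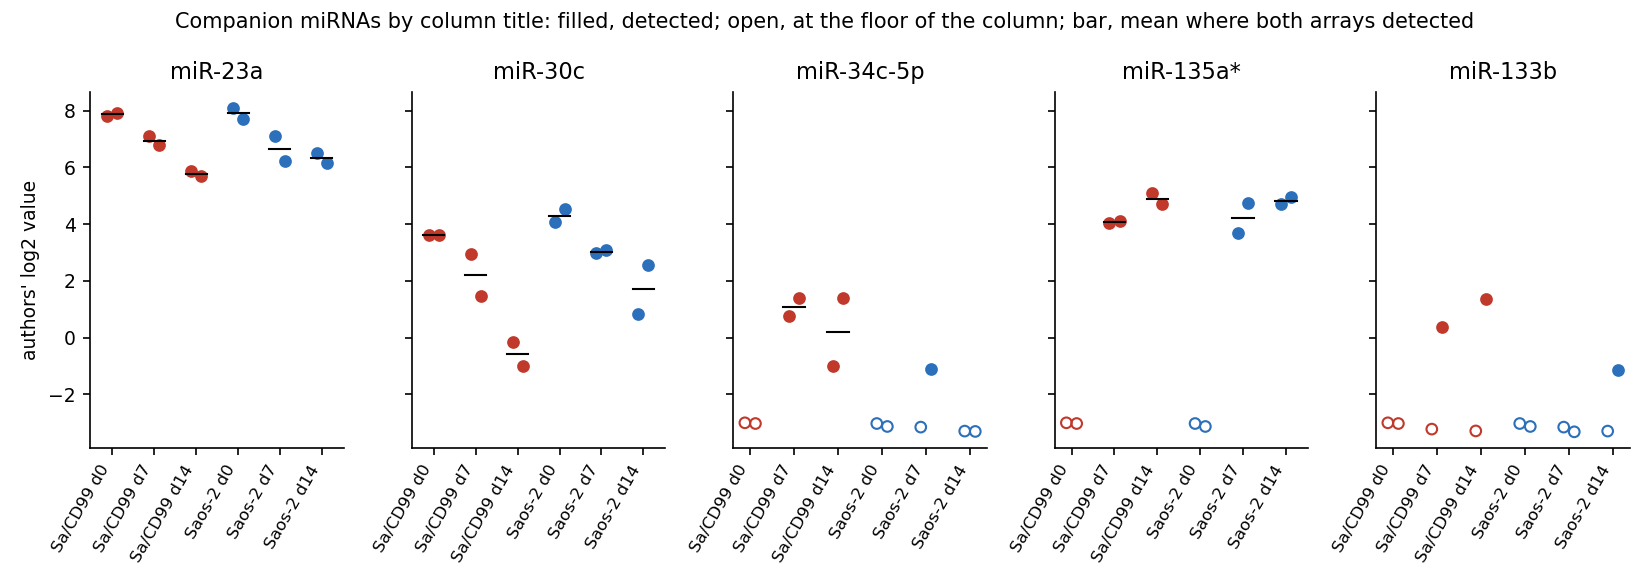
Authors' log2 values (y axis) of 5 companion miRNAs in the 6 groups of cell type by day given by the column titles (x axis, 2 arrays each); filled points are detected, open points are at the column minimum, and bars are means where both arrays detected the miRNA. miR-23a and miR-30c are filled in all 12 columns and lower at day 14 than at day 0, and miR-135a* is open in all 4 day 0 columns.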

How the data were processed

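The 12 miRNA arrays were analysed; the gene expression arrays were not used here. The authors extracted scanner intensities per spot with Feature Extraction (version 10.7.3.1 per the file headers), and left these deposited intensities without normalization across arrays. The deposited log2 table follows an rma adaptation by the methods; its detected values ranked exactly as the total gene signal of the matching array (Spearman correlation 1 in 12 of 12 columns), and undetected miRNAs stand at about log2 of 0.1 after normalization. Groups came from the column titles. The 6 groups were fitted with limma 3.58.1 (R 4.3.3) over miRNAs that both arrays of some group detected; the code was tested on simulated data. Alternatives changed the sample record, summary, floor, centring, filter, threshold, arrays and replicate block. A clone is 1 cell line across days, so the Sa/CD99 arrays are paired by clone. Deviations of same-numbered arrays from group means correlated at 0.446 to 0.524 in Sa/CD99 and 0.413 to 0.631 in Saos-2. The consensus correlation within the replicate block was 0.12. The main fit had no such block, which was an alternative. Whether the Saos-2 numbers pair the arrays was not settled. The miRNAs named were all 10 members, fixed companion lists and fixed markers. Members and lists were chosen with earlier results of these data known. miR-205* was not analysed here. The number of arrays, 2 per group, limits precision.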

Additional observations from a re-analysis of the deposited data

Results flagged for a closer look

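Of the spots of miR-135a, 2.08% (4 of 192) were well above background by the scanner software, a higher share than the 1.09% of negative-control spots, although the miRNA was not detected on any array. The 4 spots lay on 3 arrays, by column title Sa/CD99 clone 22 at day 0, Saos-2 replicate 2 at day 7 (2 spots) and Sa/CD99 clone 36 at day 0, which were filed as Sa/CD99 clone 36 at day 0, clone 36 at day 7 and clone 22 at day 14. Of the 4, 2 carried an outlier flag. The share positive and significant, 24.5%, was below the 35.5% of negative-control spots. The difference between the shares was not tested.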

How the results depend on the processing

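No member was detected by the scanner flag, on both arrays of at least 1 group or on at least 6 arrays; of 2 limits added after the data were seen, 0 members passed at a signal over 2 times its error and 5 at over 1 times its error. No member was called in any comparison under any alternative that kept a detection filter, including the replicate block, which gave 0 calls among members, and leaving out each array, which gave 0 to 0; only without a filter were members tested, and then 10 of 10 were called between days 14 and 0 in Sa/CD99 and 10 of 10 in Saos-2, where every value was a column minimum. Fold changes of members therefore have no values under the filtered alternatives. The replicate block changed no call of a companion given above; it cannot move a fold change in this balanced design, and the adjusted p of miR-30c in Sa/CD99 was 0.00061 with it (limma). Of 160 recomputed companion values, 119 kept their side of the threshold, 25 lost the call in the same direction and 16 lost it with the sign turned, all 16 on the arrays as filed. With the total gene signal as filed, the day 14 to day 0 log2 fold changes in Sa/CD99 and Saos-2 were 0.077 and 0.11 for miR-23a, 0.51 and 0.16 for miR-30c and -3.52 and -0.85 for miR-135a*, and miR-34c-5p in Sa/CD99 against Saos-2 was -2.94 at day 7 and -2.24 at day 14; the values of miR-135a* in Sa/CD99 and of miR-34c-5p rest on the placeholder of undetected arrays and are no measured differences. With median polish as filed they were 0.063 and 0.26, 0.11 and 0.051, -0.095 and -0.067, and -0.022 and -0.028; the cause was not tested. The call of miR-23a in Saos-2 was lost without Saos-2 replicate 1 of day 0 (-1.39; adjusted p = 0.052 from limma), and that of miR-30c in Saos-2 without replicate 2 of day 0 (-2.37) or replicate 1 of day 14 (-1.74). miR-34c-5p at day 7 ran from 2.18 to 4.24 when 1 array was left out and lost its call in 7 of 12 such fits (without Sa/CD99 clone 22 of day 0 or 7, clone 36 of day 7, Saos-2 replicate 1 of day 0, 7 or 14, or replicate 2 of day 14); at day 14 it lost its call without Sa/CD99 clone 36 (2.30) or either Saos-2 array of that day (3.50 and 3.49), and on both days in a fit of the 4 arrays of that day alone. The background counts of calls moved more: between days 14 and 0 they were 163 in Sa/CD99 and 122 in Saos-2, but 1 and 0 as filed with the total gene signal, 0 and 0 with median polish, 760 and 727 without a filter and 82 and 64 over miRNAs detected on all arrays. Over all days 6 became 57 and 76 as filed, 0 with the raised floor and 3 with the replicate block. At days 0, 7 and 14, 6, 7 and 20 became 1, 0 and 3 with median polish as filed and 0, 0 and 7 over miRNAs detected on all arrays. Depth is a matter of signal over background here: a miRNA under 3 times its probe's error was not called. That error differs by probe. miR-34c-5p was undetected at a signal of 3.50 units summed over all its probes. The dimmest detected miRNA of each array had a total gene signal of 1.17 to 1.61 units. This is another measure, which can lie below the sum over probes (1.43 against 1.88 for miR-338-5p on the array that detected it).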
